A study of Mus musculus with 20 samples.

Results

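The genes described here are 34 interferon-stimulated genes of the mouse, chosen by symbol from a list of interferon signalling and effector genes and read as rows of a gene count table of 24411 genes. All 34 were in the table, and all 34 passed the expression filter that 15284 genes passed. None of the 34 was at 0 counts in any library. They comprised 4 transcription factors (Stat2, Irf9, Irf1, Irf7), 3 genes of the ISG15 system (Isg15, Usp18, Herc6), 4 Ifit genes (Ifit1, Ifit2, Ifit3, Ifit3b) and 5 genes of the oligoadenylate synthetase family (Oas1a, Oas2, Oas3, Oasl1, Oasl2). The others were the Mx GTPases Mx1 and Mx2, viperin (Rsad2) and its neighbour Cmpk2, the membrane restriction factors Bst2 and Ifitm3, the ADP-ribosylation genes Parp9, Parp14 and Dtx3l, 8 further effectors (Ifi44, Ifi35, Xaf1, Rtp4, Trim30a, Lgals3bp, Gbp3, Samd9l) and the chemokine Cxcl10.

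Type I interferons bind the receptor made of Ifnar1 and Ifnar2, and the kinases Jak1 and Tyk2 then phosphorylate STAT factors, Stat2 among them. The complex ISGF3, which holds Stat2 and Irf9, binds the interferon-stimulated response element (ISRE) in the promoters of antiviral genes. Many of the induced proteins act on viral RNA, on viral entry or on budding. Neurons and glia both express the receptor and many of its target genes, and a low level of these transcripts without infection is common.

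Sequencing was used to measure RNA in cultured cerebellar granule neurons (CGNs) of the mouse, small glutamatergic cells of the cerebellar cortex. The 4 groups of 5 libraries were a control, an shRNA against mouse Kdm6b (shKdm6b), this shRNA together with the enzymatic domain of human KDM6B in active form (active rescue, labelled Cat Rescue) and the shRNA with a dead enzymatic domain (dead rescue, labelled dCat Rescue). Kdm6b encodes a demethylase of lysine 27 of histone H3. All 4 groups were infected on day 1 in vitro, the antimitotic AraC was added on day 2, and RNA was harvested on day 7. The series asked whether enzymatic activity suffices to restore synaptic gene expression after the knockdown. What the control received, and whether each library had its own culture or animal, is not given by the labels. A p-value here therefore reflects only how these samples spread, which may be technical. As the control's treatment is not given, effects of delivering the shRNA cannot be told apart from those of lower Kdm6b.

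The depth of the 20 libraries lay between 14200745 and 21179300 estimated counts. Levels below are CPM, counts scaled to the library size with TMM factors, and a difference is a log2 fold change ± SE. Libraries of the 4 groups share the numbers 1 to 5, and libraries of 1 number deviated together from their group means, so the tests were made both without and with the library number as a block. Kdm6b was at 144 ± 40.5 CPM (SD, n = 5) in control and at 83.0 ± 28.3 in shKdm6b, lower in 5 of 5 same-numbered pairs. Its log2 fold change was -0.88 ± 0.21 with the block (edgeR adjusted p = 0.0231) and -0.79 without it (adjusted p = 1.00). The block's call was lost without the libraries numbered 4 or those numbered 5, and without any 1 of control libraries 4 and 5 and shKdm6b libraries 1, 3 and 5. Kdm6b was at 212 ± 109 CPM in the active rescue and 176 ± 92.2 in the dead rescue, where reads of the human domain could have been counted under the mouse gene. Whether the counting used strand is not given in the sources used here, so reads of the overlapping antisense gene Kdm6bos cannot be told apart.

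Against control, the outcome for the 34 genes in shKdm6b turned on the block. Without it, in the planned fit, 0 of the 34 passed (edgeR quasi-likelihood, adjusted p under 0.05), beside 0.00654% of all genes called higher. In that fit 5 had an unadjusted p under 0.05 (14.7%, beside 1.77% of all genes higher at that level), and DESeq2 without the block also called 0. With the library number as a block, 7 rose and 0 fell: Usp18, Ifit1, Ifit3, Ifit3b, Rsad2, Rtp4 and Cxcl10, with log2 fold changes from 0.37 to 1.50. The 7 are 20.6% of the 34, beside 1.72% of all genes tested called higher and 2.41% called lower. All 34 fold changes were positive with the block, with a median of 0.38 beside 0.01 over all genes. Without the block 33 of the 34 were positive. In 26 of the 34 genes (76.5%) shKdm6b was higher than the control of the same number in 5 of 5 pairs, which held for 12.9% of all genes. In 0 genes was it lower in all 5 pairs, beside 11.9% of all genes. The 34 genes share a pathway and can rise and fall together in a library, so counts of them are not counts of independent results. Among the 7, Ifit3 and Ifit3b also share much of their sequence. In 3 genes, Irf9, Ifit2 and Rsad2, the lowest shKdm6b library lay above the highest control library (8.82%, beside 0.53% of all genes). For Irf9 the margin was narrow, at 100.5 against 100.4 CPM. With the block, the count of 7 became 5 without the libraries numbered 4, 1 without those numbered 5, and 2 with numbers 1 to 3 alone. Stat2, not among the 7, was 1 of those 5, while Usp18, Ifit1 and Rtp4 were not. Leaving out single libraries gave 3 to 9. For these fits on fewer libraries the share of all genes called is not given here, so their counts have no background.

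**Figure D1:**
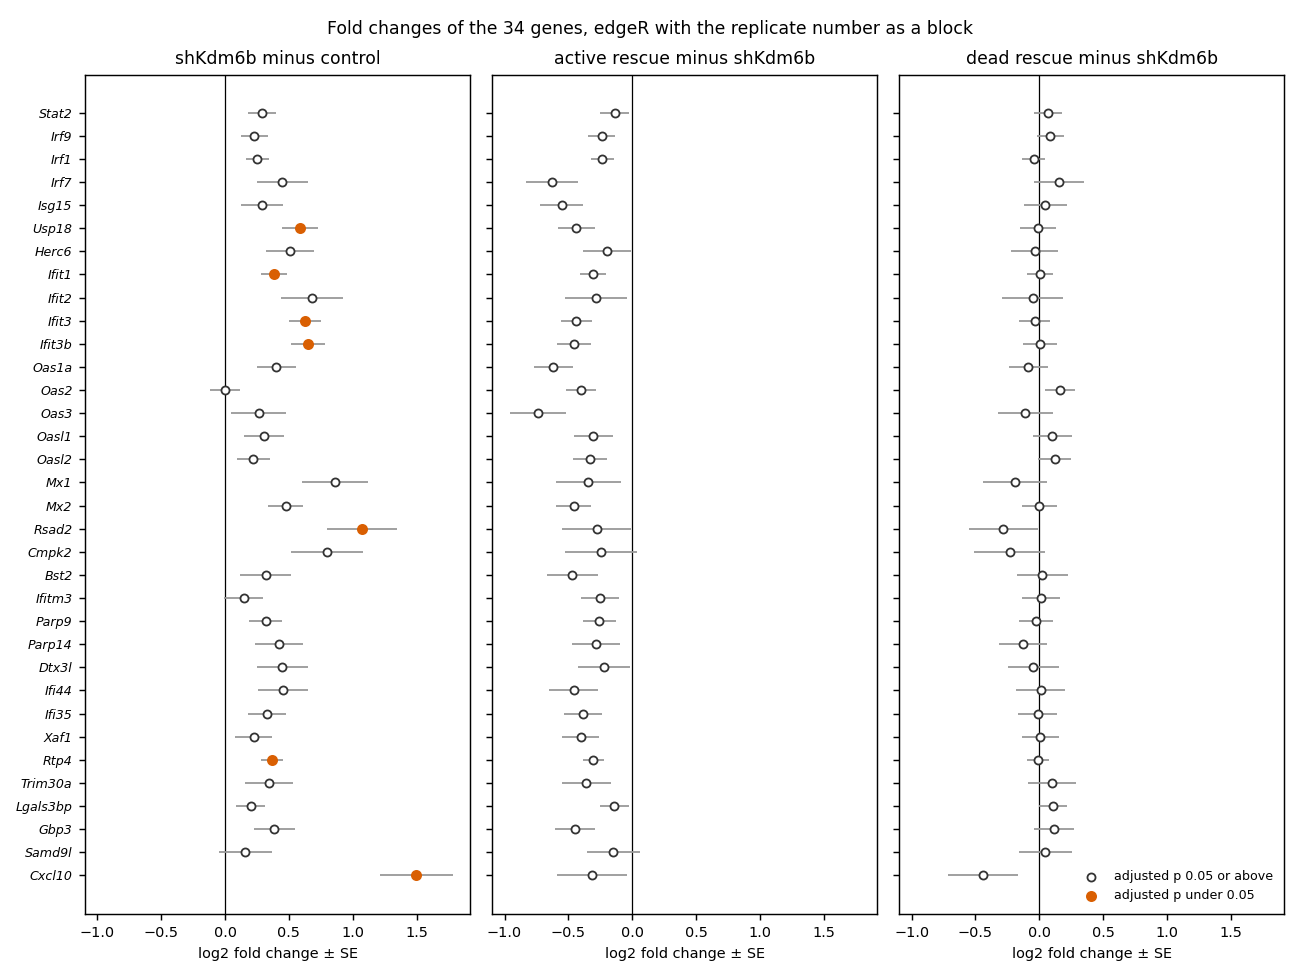
Log2 fold change (x axis, ± SE) of each of the 34 genes (y axis, ordered by role) in 3 comparisons, from edgeR with the library number as a block. Orange points passed an adjusted p of 0.05, white points did not. All 34 points lie right of 0 for shKdm6b minus control and left of 0 for active rescue minus shKdm6b, and 18 lie right of 0 for dead rescue minus shKdm6b.

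Cxcl10, a chemokine that attracts T cells through the receptor Cxcr3, showed the largest fold change of the 34. It measured 15.5, 11.6, 29.8, 28.9 and 12.1 CPM in control libraries 1 to 5, and 44.0, 19.5, 73.1, 159 and 38.3 CPM in shKdm6b. All 5 shKdm6b libraries lay above the control of their number, while the groups overlapped because shKdm6b library 2 was below control libraries 3 and 4. The log2 fold change was 1.50 ± 0.28, a 2.83-fold rise (adjusted p = 0.00576 with the block; 1.77 ± 0.67 and adjusted p = 1.00 without it). Cxcl10 was called in this comparison in 15 of the 15 fits with the block, made up of edgeR and DESeq2 on all libraries, 3 fits on fewer library numbers and 10 that left out 1 library each. It measured 25.7, 16.6, 38.2, 123 and 51.8 CPM in the active rescue and 25.9, 13.2, 80.6, 129 and 19.3 CPM in the dead rescue. Both rescues were above control in 5 of 5 pairs. The block called the rise of 1.18 ± 0.29 in the active rescue (adjusted p = 0.0440) but not the difference of 1.06 ± 0.28 in the dead rescue (adjusted p = 0.0890). The call in the active rescue held in 4 of 15 fits with the block.

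Of the Ifit genes, whose proteins bind viral RNA and hold back its translation, 3 of 4 rose in shKdm6b with the block. Ifit3 measured 107, 83.0, 155, 101 and 70.3 CPM in control, and 169.7, 92.2, 272, 205 and 101 CPM in shKdm6b. It was 139, 69.4, 189, 148 and 70.8 CPM in the active rescue and 122, 112, 289, 191 and 100.5 CPM in the dead rescue. The groups overlapped, with libraries 3 the highest in every group, and shKdm6b exceeded control in 5 of 5 pairs. The fold change from control was 0.63 ± 0.12 (adjusted p = 0.00731 with the block).

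Ifit3b, the neighbouring copy of Ifit3, measured 77.6, 52.0, 91.5, 165 and 70.5 CPM in control and 115, 60.8, 168, 332 and 110.4 CPM in shKdm6b. The active rescue measured 92.4, 38.9, 118, 267 and 75.6 CPM and the dead rescue 85.5, 69.6, 189, 344 and 110.0 CPM. Library 4 was the highest of each group and library 2 the lowest. The difference between shKdm6b and control was 0.65 ± 0.13 (adjusted p = 0.00929 with the block). Ifit3 and Ifit3b share much of their sequence: 61.8% of the 31-base words of the Ifit3 transcript also occur in Ifit3b, and 54.1% of those of Ifit3b in Ifit3. Reads that fit both could have been split between them, so their separate values are uncertain. Both calls were lost without the libraries numbered 5 and with numbers 1 to 3 alone.

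Ifit1 measured 136, 106, 215, 194 and 155 CPM in control and 160.0, 115, 307, 329 and 189 CPM in shKdm6b, higher in each pair. Its fold change was 0.38 ± 0.10 (adjusted p = 0.0416), a call that held in 3 of 15 fits with the block. The call was lost in the 3 fits on fewer library numbers. It was also lost without any 1 of control libraries 1, 3, 4 and 5 or of the 5 shKdm6b libraries. Ifit1 was at 164, 95.8, 194, 260.2 and 153 CPM in the active rescue and at 165, 116, 296, 296 and 217 CPM in the dead rescue. The active rescue was the lower of the 2 rescues in 5 of 5 pairs. Ifit2, the member that did not pass, measured 33.9 ± 5.43 CPM in control and 55.6 ± 11.7 in shKdm6b (SD, n = 5), groups that did not overlap.

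Rsad2 encodes viperin, a radical SAM enzyme that makes a chain-terminating nucleotide, and Cmpk2 beside it on chromosome 12 encodes a mitochondrial nucleotide kinase. Rsad2 measured 43.1, 33.9, 39.5, 26.5 and 24.3 CPM in control and 97.6, 49.9, 74.0, 93.9 and 58.1 CPM in shKdm6b. Every shKdm6b library lay above every control library. The rise was 1.07 ± 0.27, 2.10-fold (adjusted p = 0.0330 with the block; adjusted p = 0.564 without it, the smallest of the 34). The call held in 6 of 15 fits with the block, and was lost without the libraries numbered 5, without any 1 of control libraries 1, 3, 4 and 5 and without any 1 of shKdm6b libraries 1, 2, 3 and 5. The active rescue spread most widely, with 64.8, 28.1, 34.5, 132 and 65.3 CPM, and the dead rescue had 67.3, 32.3, 77.5, 88.7 and 47.3 CPM. Cmpk2 was at 23.6 ± 4.49 CPM in control, 43.3 ± 13.2 in shKdm6b, 38.6 ± 25.3 in the active rescue and 37.5 ± 12.3 in the dead rescue (SD, n = 5), and passed in no comparison.

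Usp18, which removes ISG15 from proteins and blocks signalling at Ifnar2, was the member of the ISG15 system that passed with the block. It measured 68.8, 75.6, 82.3, 125 and 72.6 CPM in control and 107, 87.0, 134, 232 and 106 CPM in shKdm6b. The rise was 0.59 ± 0.14 (adjusted p = 0.0257) and held in 6 of 15 fits with the block. It was lost without the libraries numbered 4, without those numbered 5, with numbers 1 to 3 alone, and without any 1 of control libraries 1, 3 and 4 and shKdm6b libraries 1, 3 and 5. Usp18 had 100.2, 61.6, 98.0, 192 and 54.2 CPM in the active rescue and 84.3, 93.6, 149, 249.5 and 98.1 CPM in the dead rescue. In each group library 4 was the highest. Isg15, the ubiquitin-like modifier itself, was at 178 ± 105 CPM in control, 244 ± 207 in shKdm6b, 149.7 ± 83.8 in the active rescue and 229.8 ± 137 in the dead rescue. Herc6, the mouse ISG15 ligase, was at 26.5 ± 7.25, 38.5 ± 12.4, 32.9 ± 12.3 and 38.1 ± 13.0 CPM in the same order (SD, n = 5).

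Rtp4, an interferon-induced zinc-finger protein known as a chaperone of G protein-coupled receptors, measured 51.7, 35.1, 54.0, 87.7 and 51.7 CPM in control and 55.6, 44.3, 77.9, 136 and 61.7 CPM in shKdm6b. It rose by 0.37 ± 0.09 (adjusted p = 0.0197 with the block), in 5 of 5 pairs but with overlapping groups. The call held in 7 of 15 fits with the block. It was lost without the libraries numbered 4, without those numbered 5, with numbers 1 to 3 alone, and without any 1 of control libraries 3 and 4 and shKdm6b libraries 2, 3 and 4. Rtp4 was at 52.8, 35.0, 61.3, 100.5 and 49.5 CPM in the active rescue and at 50.1, 46.2, 80.7, 128 and 65.2 CPM in the dead rescue. In the annotation 12.5% of the 31-base words of Rtp4 also occur in the overlapping gene model Gm45338. The other 7 effectors of that group passed in no comparison, and all 7 had positive fold changes in shKdm6b.

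Promoter sequence was examined because the fold changes in shKdm6b leaned 1 way, with 34 of 34 positive with the block and 33 of 34 without it. Of the 34 genes, 27 have a promoter in the RefSeq table used (GRCm38.p6, 250 bases before to 50 after the start). The ISRE core GAAANNGAAA, on either strand, was present in 13 of these 27 genes (48.1%), beside 3.99% of the 27025 genes with a promoter of that length. The GAS core TTCNNNGAA, which reads alike on both strands, was in 6 of 27 (22.2%), beside 9.55%. The 34 genes were listed as interferon-stimulated, so shares above those of all genes come with the choice of list. Such shares say nothing about shKdm6b. The 13 genes held 23 matches, overlapping ones counted, of which 20 lay before the start and 15 within 150 bases before it. Of the 7 genes that rose with the block, 5 are in the table. Their 250 bases before the start are printed because each holds the core. Each is read 5′ to 3′ on the gene's own strand with the matches in capitals.

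The stretches are Ifit1 at chr19:34640639-34640888 (plus strand), Ifit3 at chr19:34583279-34583528 (plus strand), Ifit3b at chr19:34607707-34607956 (plus strand), Rsad2 at chr12:26456453-26456702 (minus strand) and Cxcl10 at chr5:92348890-92349139 (minus strand), all in GRCm38 from RefSeq.
Ifit1: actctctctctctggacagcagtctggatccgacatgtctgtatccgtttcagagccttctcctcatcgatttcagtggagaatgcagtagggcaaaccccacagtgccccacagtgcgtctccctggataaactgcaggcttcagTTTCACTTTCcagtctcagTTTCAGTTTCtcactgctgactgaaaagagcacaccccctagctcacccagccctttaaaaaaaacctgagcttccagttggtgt
Ifit3: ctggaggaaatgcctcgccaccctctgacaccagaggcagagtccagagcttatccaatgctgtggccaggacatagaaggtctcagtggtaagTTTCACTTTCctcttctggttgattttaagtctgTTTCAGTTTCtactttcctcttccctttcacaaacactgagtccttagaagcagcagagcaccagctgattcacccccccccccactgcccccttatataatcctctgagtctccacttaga
Ifit3b: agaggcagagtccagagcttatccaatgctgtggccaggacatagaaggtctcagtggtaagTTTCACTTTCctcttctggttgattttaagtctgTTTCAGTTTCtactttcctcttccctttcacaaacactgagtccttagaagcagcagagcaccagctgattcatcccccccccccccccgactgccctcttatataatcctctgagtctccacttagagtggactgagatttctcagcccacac
Rsad2: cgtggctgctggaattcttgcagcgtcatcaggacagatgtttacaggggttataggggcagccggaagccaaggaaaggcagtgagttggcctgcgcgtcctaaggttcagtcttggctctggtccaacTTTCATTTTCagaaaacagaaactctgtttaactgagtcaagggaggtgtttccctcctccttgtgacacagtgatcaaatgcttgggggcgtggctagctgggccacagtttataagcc
Cxcl10: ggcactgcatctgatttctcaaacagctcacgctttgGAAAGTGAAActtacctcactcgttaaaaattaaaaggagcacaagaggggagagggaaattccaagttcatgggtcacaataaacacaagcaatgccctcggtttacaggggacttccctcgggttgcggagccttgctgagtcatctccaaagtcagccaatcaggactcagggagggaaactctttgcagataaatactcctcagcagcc

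Ifit1 and Ifit3, like Ifit3b, hold 2 cores each, and Rsad2 and Cxcl10 hold 1. The first base of the match lies 85 and 104 bases before the start in Ifit1, 122 and 156 in Ifit3, 154 and 188 in Ifit3b, 120 in Rsad2 and 213 in Cxcl10. The Ifit3 and Ifit3b promoters, aligned locally, were identical at 258 of 274 columns (94.2%), with 14 gap columns. Usp18 and Rtp4, which also rose with the block, are among the 7 genes with no entry. The other 8 genes with a core were Stat2, Isg15, Oas1a, Oas3, Bst2, Ifitm3, Trim30a and Gbp3, none of which passed in any comparison on all 20 libraries in edgeR; 14 genes had no core in this window. A match is a description of the letters and not a measured binding site.

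The transcription factors did not pass in any of the 6 comparisons with or without the block, and 4 of 4 had positive fold changes in shKdm6b (median 0.27 with the block). Stat2, the ISGF3 subunit that carries its activation domain, measured 185, 188, 208, 153 and 201 CPM in control and 234, 214, 288, 179 and 233 CPM in shKdm6b. It was 217, 179.6, 224, 243 and 173 CPM in the active rescue and 211, 218, 289.7, 245 and 236 CPM in the dead rescue. All 5 dead rescue libraries lay above all 5 control libraries, and the fold change was 0.36 ± 0.11 (adjusted p = 0.163 with the block). In shKdm6b it was 0.29 ± 0.11 (adjusted p = 0.203), which passed without the libraries numbered 4.

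Irf9, the subunit that gives ISGF3 its DNA sequence preference, measured 88.4, 100.4, 76.6, 94.1 and 89.8 CPM in control, and 101, 109, 101, 116 and 101 CPM in shKdm6b. Active rescue libraries had 107, 83.9, 75.5, 120.2 and 66.5 CPM and the dead rescue 109, 102, 114, 136 and 101 CPM. Both shKdm6b and the dead rescue lay wholly above control, while the active rescue reached below and above it. For shKdm6b the margin was narrow, with its lowest library at 100.5 CPM and the highest control library at 100.4 CPM. Irf7, which amplifies type I interferon production, measured 116, 85.2, 83.9, 289 and 181 CPM in control, 117, 98.5, 149, 479.8 and 255 CPM in shKdm6b, 128, 53.9, 112, 309 and 86.3 CPM in the active rescue and 117, 118, 210.3, 464 and 259 CPM in the dead rescue. Library 4 was the highest in each group. Irf1 was at 30.8 ± 10.8, 36.8 ± 13.9, 31.6 ± 12.2 and 35.4 ± 12.1 CPM in control, shKdm6b, active rescue and dead rescue (SD, n = 5).

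**Figure D2:**
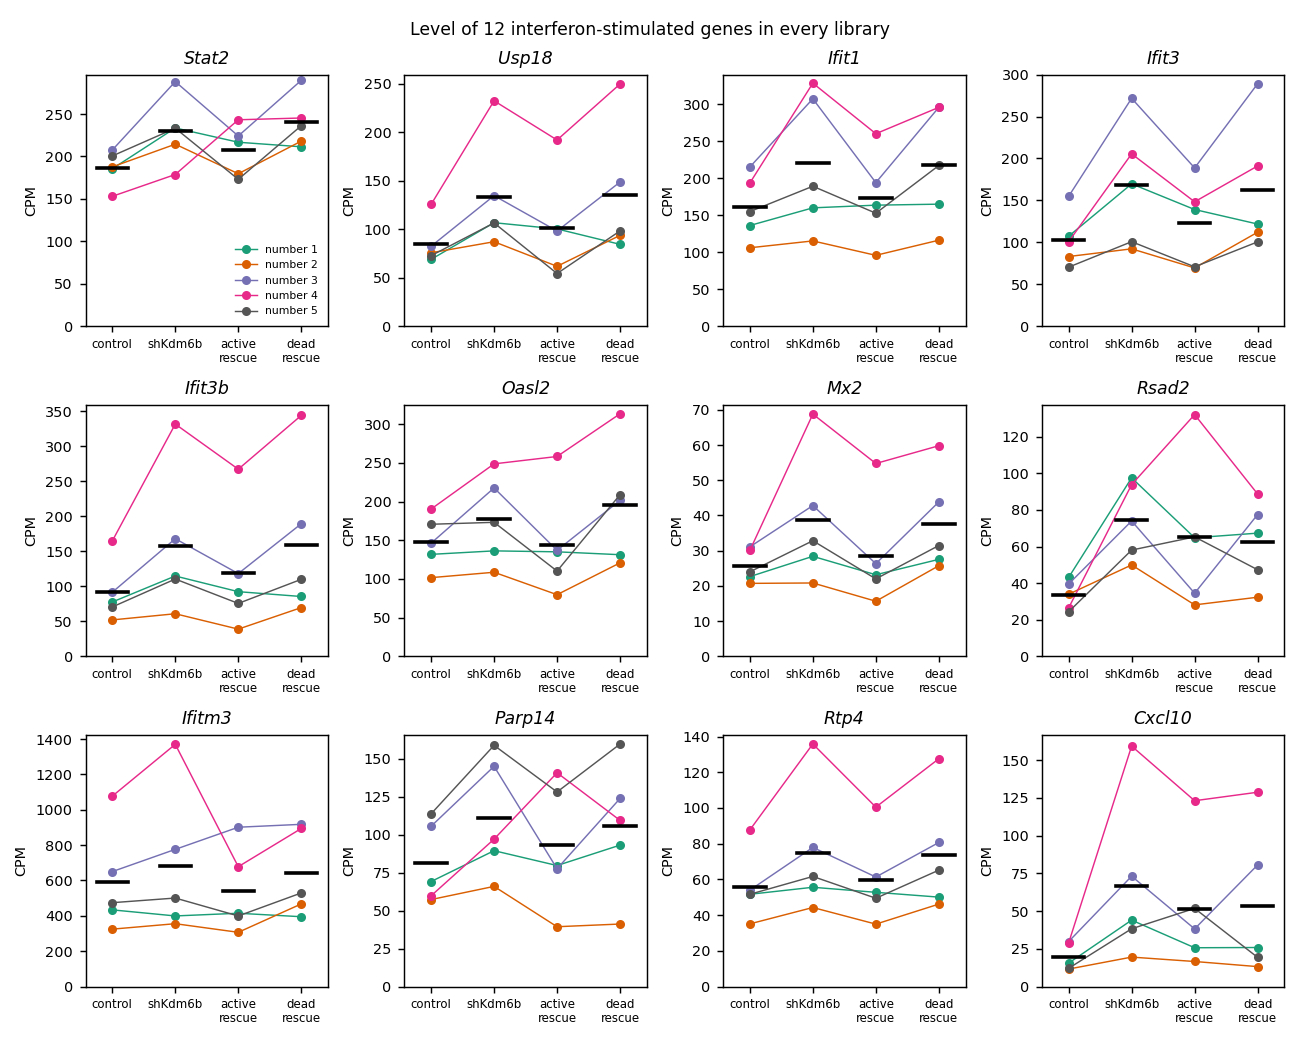
Level in CPM (y axis, linear, from 0) of 12 of the 34 genes in each of the 20 libraries. Coloured points joined by lines are libraries of 1 number across the 4 groups (x axis) and black bars are group means. Library 4 (pink) is the highest of every group for Usp18, Ifit3b, Oasl2 and Rtp4, and of every group but control for Mx2 and Cxcl10.

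The oligoadenylate synthetases make the second messenger that activates RNase L, and Oasl1 and Oasl2 are related proteins. None of the 5 passed in shKdm6b, and 5 of 5 fold changes were positive with the block (median 0.26). Oasl2 measured 132, 102, 146, 190.4 and 171 CPM in control and 136, 109, 218, 249 and 173 CPM in shKdm6b. It was 135, 79.7, 137, 258 and 110.2 CPM in the active rescue and 131, 121, 202, 314 and 209 CPM in the dead rescue. Groups overlapped throughout. Oas2 differed from the others: it measured 30.9, 18.2, 40.8, 75.7 and 73.7 CPM in control and 29.1, 18.5, 49.0, 69.7 and 69.3 CPM in shKdm6b, a fold change of 0.00 ± 0.12 with the block. In the active rescue Oas2 had 28.5, 11.1, 28.8, 69.8 and 45.9 CPM, below control and below the dead rescue (32.3, 21.7, 53.3, 75.1 and 79.1 CPM) in 5 of 5 pairs. Its difference from control there was -0.40 ± 0.12 (adjusted p = 0.102 in edgeR with the block), and DESeq2 with the block called it lower.

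For Oas1a 68.7% of the 31-base words also occur in Oas1g, so its counts are uncertain. It was at 60.4 ± 38.2 CPM in control, 84.1 ± 64.9 in shKdm6b, 50.4 ± 25.5 in the active rescue and 73.0 ± 38.8 in the dead rescue. Oasl1 was at 12.4 ± 4.11, 15.8 ± 7.27, 12.7 ± 6.11 and 16.2 ± 5.25 CPM in the same order (SD, n = 5). Oas3 had medians of 8.68, 9.68, 7.61 and 9.498 CPM, with libraries from 6.02 to 20.9, 7.97 to 24.95, 3.10 to 11.3 and 5.03 to 26.3 CPM. The groups overlapped in every comparison of these 3 genes.

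Mx1 and Mx2 encode dynamin-like GTPases that trap viral nucleocapsids. Mx2 measured 22.6, 20.7, 31.1, 30.1 and 24.0 CPM in control and 28.4, 20.8, 42.8, 68.8 and 32.8 CPM in shKdm6b. The active rescue had 23.2, 15.6, 26.3, 54.8 and 22.0 CPM, and the dead rescue 27.5, 25.7, 43.9, 59.8 and 31.5 CPM. The fold change in shKdm6b was 0.48 ± 0.14 (adjusted p = 0.0675 with the block), and DESeq2 with the block called it and Mx1. Mx1 was at 7.93 ± 1.12 CPM in control and 15.9 ± 7.04 in shKdm6b (SD, n = 5), with an adjusted p of 0.0804 in edgeR with the block.

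Bst2, or tetherin, holds budding virions at the cell surface, and Ifitm3 blocks fusion of virions in endosomes. Neither passed in any comparison. Ifitm3 measured 434, 325, 650.3, 1077 and 474 CPM in control and 399, 356, 776, 1370.4 and 501 CPM in shKdm6b. It was 415, 307, 901, 678 and 399 CPM in the active rescue and 395, 467, 918, 894 and 529.5 CPM in the dead rescue. Its fold change in shKdm6b was 0.20 without the block and turned to -0.24 without shKdm6b library 4. Bst2 measured 193, 147, 187, 722 and 259.7 CPM in control and 171, 159, 270.1, 1158 and 335 CPM in shKdm6b. In control and in shKdm6b library 4 was the highest for both genes.

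Parp9 and Dtx3l form a complex that joins ADP-ribosylation to ubiquitination, and Parp14 is a related mono-ADP-ribosyltransferase. Parp14 measured 69.2, 57.3, 106, 59.8 and 114 CPM in control and 89.5, 66.0, 145, 97.1 and 159 CPM in shKdm6b. The active rescue had 79.7, 39.4, 77.6, 141 and 128 CPM and the dead rescue 93.2, 41.2, 124, 109 and 159.8 CPM. Parp14 was higher in shKdm6b in 5 of 5 pairs, by 0.42 ± 0.19 (adjusted p = 0.302 with the block). Parp9 and Dtx3l overlap on opposite strands, with 8.54% and 7.52% of their 31-base words antisense to the other, so reads there cannot be told apart without strand. They were at 53.5 ± 9.98 and 51.7 ± 19.2 CPM in control and at 68.0 ± 16.9 and 70.5 ± 22.7 CPM in shKdm6b (SD, n = 5).

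Between the active rescue and shKdm6b, 0 of the 34 genes passed with or without the block, beside 0.00654% of all genes called higher and 0% lower with the block. The median fold change was -0.32 with the block, beside 0.01 over all genes, and 34 of 34 values were negative. The smallest adjusted p was 0.468, and 19 of 34 had an unadjusted p under 0.05 in edgeR with the block, all lower, beside 1.39% of all genes (0 of the 34 without it); DESeq2 called 0 with and 0 without the block. In 9 genes the active rescue was lower in 5 of 5 pairs (26.5%, beside 1.64% of all genes): Irf1, Isg15, Usp18, Ifit3, Ifit3b, Oas1a, Oasl1, Mx2 and Rtp4. The fold change was -0.44 ± 0.12 for Ifit3, -0.44 ± 0.14 for Usp18 and -0.30 ± 0.09 for Rtp4, each with an adjusted p of 0.629 or above.

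Between the active and dead rescues, which by design differ in enzyme activity, 0 of 34 passed in edgeR with or without the block. This stands beside 0.00654% of all genes called higher and 0% lower with the block. Whether the 2 rescues held equal amounts of the domain was not tested. DESeq2 called 0 without the block and 1, Oas2, with it. The median was -0.35 with the block, beside 0.01 over all genes, and 32 of 34 values were negative. An unadjusted p under 0.05 was reached by 21 of 34 in edgeR with the block, all lower, beside 1.15% of all genes, and by 1 without it, beside 0.0851%. In 5 genes, Irf9, Ifit1, Oas2, Oas3 and Mx2, the active rescue was lower in 5 of 5 pairs (14.7%, beside 2% of all genes). The fold change was -0.31 ± 0.10 for Ifit1 and -0.46 ± 0.14 for Mx2 with the block, at adjusted p of 0.993 or above. Rsad2 and Cxcl10 had positive values with the block, at 0.00 ± 0.27 and 0.12 ± 0.28, and Cxcl10 was at -0.07 without it.

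Between the dead rescue and shKdm6b, 0 of 34 passed, beside 0% of all genes called higher and 0% lower with the block, and 0 had an unadjusted p under 0.05 in edgeR with or without the block; DESeq2 called 0 with and without it. The median was 0.00, with 18 values positive and 16 negative. The values ran from -0.44 for Cxcl10 to 0.16 for Oas2, the single gene that was higher in 5 of 5 pairs (2.94%, beside 1.75% of all genes). For Ifit3 the difference was -0.04 ± 0.12 and for Usp18 -0.01 ± 0.14. These values do not show that the groups are alike.

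Against control, the dead rescue had 2 of 34 genes called higher with the block, Ifit3 (0.59 ± 0.12, adjusted p = 0.0274) and Ifit3b (0.66 ± 0.13, adjusted p = 0.0238), and 0 lower. That is 5.88% of the genes, beside 0.576% of all genes called higher and 0.608% lower. Ifit3 and Ifit3b share much of their sequence, so these 2 calls may not be separate results. Each call held in 5 of 15 fits with the block. Without the block 0 passed, 5 had an unadjusted p under 0.05, all higher, beside 1.23% of all genes, and DESeq2 called 0; with the block DESeq2 called 7. In Stat2 and Irf9 the dead rescue lay wholly above control (5.88%, beside 0.353% of all genes). All 34 values were positive, with a median of 0.38, and 13 genes were higher in 5 of 5 pairs (38.2%, beside 6.48% of all genes). The active rescue had 1 gene called higher, Cxcl10, and 0 lower with the block, beside 1.09% and 0.87% of all genes. Without the block 0 passed, 1 (Rsad2) was higher at an unadjusted p under 0.05, beside 1.69% of all genes, and DESeq2 called 0; with the block DESeq2 called Cxcl10 higher and Oas2 lower. The median of the active rescue was 0.02, with 20 positive and 14 negative values; 1 gene was higher in 5 of 5 pairs (Cxcl10, 2.94%, beside 6.83% of all genes) and 1 lower (Oas2, beside 4.51%). The comparisons with control share the control libraries, and those with shKdm6b share the shKdm6b libraries, so they are not independent of each other.

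The 5 numbers did not give equal differences. The median over the 34 genes of the log2 difference from the control of the same number was 0.19, 0.14, 0.53, 0.66 and 0.30 in shKdm6b libraries 1 to 5. It was 0.18, 0.25, 0.64, 0.72 and 0.34 in the dead rescue, so libraries 3 and 4 gave the larger values in both. In the active rescue it was 0.16, -0.29, -0.05, 0.59 and -0.20. In its library 2, 33 of 34 genes were below control, with Cxcl10 the exception. In its library 4, 27 genes were above control and 7 below, from -0.67 for Ifitm3 to 2.32 for Rsad2. Against the shKdm6b library of the same number, the active rescue's medians were -0.08, -0.46, -0.63, -0.13 and -0.52, and the difference was largest in libraries 2, 3 and 5.

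**Figure D3:**
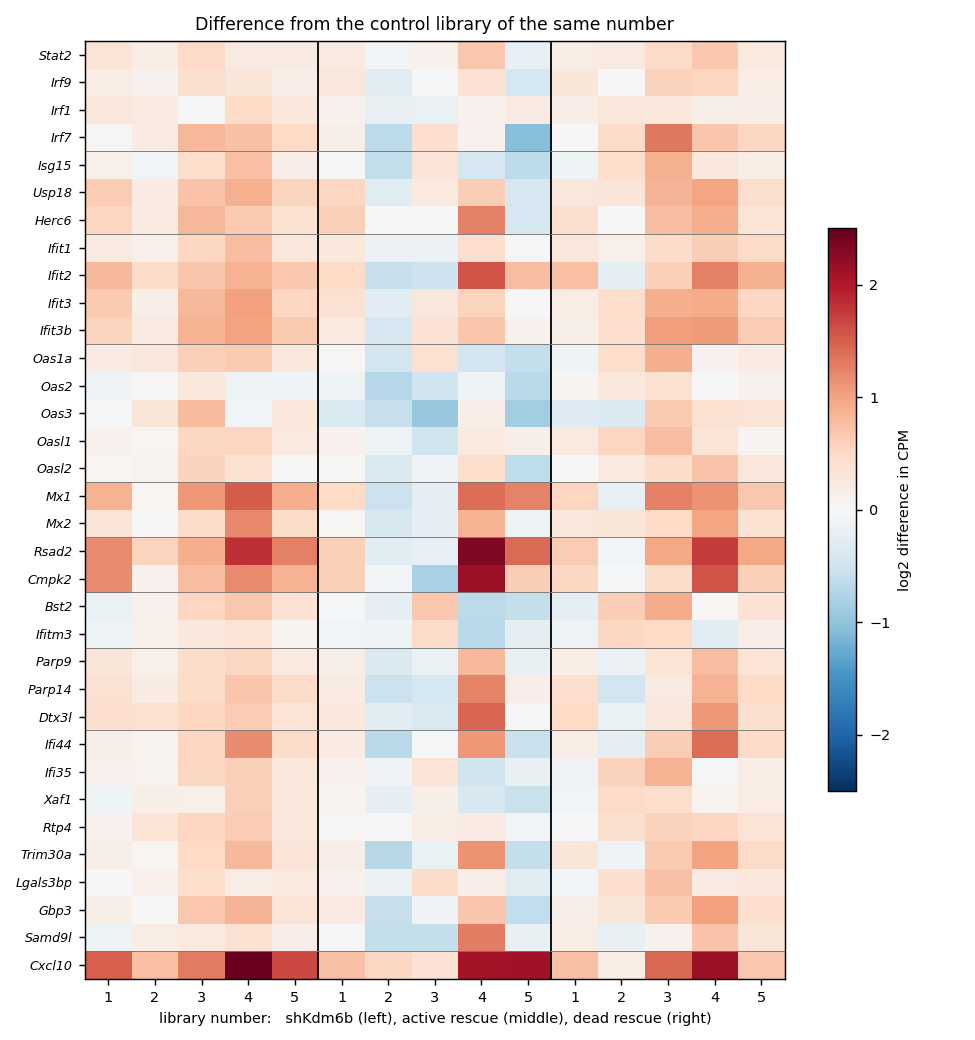
Log2 difference in CPM (colour) of each of the 34 genes (rows, ordered by role, thin lines between roles) from the control library of the same number, for libraries 1 to 5 of each other group (columns). Red is higher than control and blue lower. In shKdm6b and in the dead rescue most cells are red, and the active rescue has 33 of 34 genes below control in library 2 and 27 of 34 above it in library 4.

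The libraries numbered 4 stood apart in level. The ratio of the mean of the 4 libraries numbered 4 to that of the other numbers had a median of 1.71 over the 34 genes and ran from 0.844 for Samd9l to 3.43 for Bst2. It was above 2 for 10 genes (Irf7, Isg15, Usp18, Ifit3b, Oas1a, Bst2, Ifi35, Xaf1, Rtp4, Cxcl10) and at or below 1 for Stat2, Oas3 and Samd9l. The 12 astrocyte and Bergmann glia markers summed to between 12985 and 16859 CPM in the libraries numbered 4 and to between 2425 and 7974 CPM in the others, with 0 of 12 markers at 0. The 14 granule neuron markers, all of them detected in every library, summed to between 1990 and 3189 CPM in those numbered 4 and to between 4757 and 7887 CPM elsewhere. The 10 fibroblast and meninges markers were highest in the libraries numbered 5, at 24815 to 32408 CPM. The part of these cells in the levels of the interferon-stimulated genes was not tested. In bulk RNA, fewer cells of a type and less RNA per cell cannot be told apart.

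Summed markers of some cell types fell in shKdm6b, where the sum of the 34 genes rose. Fibroblast and meninges markers were lower than in the control of the same number in 5 of 5 pairs (mean log2 difference of the sums -0.31). So were those of GABAergic interneurons and Purkinje cells (-0.39), while the sum of the 34 genes was higher in 5 of 5 (0.35). The endothelial sum was higher in 4 of 5 pairs (0.086), and the granule neuron sum was lower in 4 of 5 (-0.14). Astrocyte and oligodendrocyte sums were each lower in 3 pairs and higher in 2 (0.042 and -0.057). With the block 0 of 10 fibroblast markers passed, and 2 of 5 tested interneuron markers, Gad1 and Slc32a1, fell. Of the 14 granule neuron markers 1 rose (Pax6) and 5 fell (Etv1, Cbln3, Grin2c, Slc17a7 and Cntn2) with the block, beside 1.72% and 2.41% of all genes, and 0 passed without it. Of the astrocyte markers 0 of 12 passed, with 8 positive. Without the libraries numbered 4, a setting chosen after seeing the data, the calls with the block differed. Lower then were 2 of 10 fibroblast markers (Col3a1 and Pdgfrb), Gad1 and Slc32a1, Slc1a2 of 12 astrocyte markers and Cspg4 of 10 oligodendrocyte markers. Of the granule neuron markers 1 rose and 6 fell in that setting, and 0 of 7 endothelial markers passed, with 6 positive.

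Microglia and macrophages also express many interferon-stimulated genes. Their 18 markers summed to between 437 and 2593 CPM in control (median 866), 513 and 1310 in shKdm6b (932), 382 and 1563 in the active rescue (908) and 489 and 1437 in the dead rescue (969). The sum was lower in shKdm6b in 3 pairs and higher in 2, with a mean log2 difference of -0.35 that was -0.09 without pair 4, where control library 4 held the 2593 CPM. Of 17 tested markers, 17 had negative fold changes with the block (median -0.34), and without the libraries numbered 4, a setting chosen after seeing the data, 11 were negative and 6 positive (median -0.03). Tmem119, a microglial gene, fell with the block (-0.67 ± 0.17, adjusted p = 0.0293) and also without the libraries numbered 4 (-0.57 ± 0.11, adjusted p = 0.00411). Siglech was at 0 in 19 of 20 libraries. T and NK cell markers summed to at most 0.920 CPM, with 2 to 4 of the 4 genes (Cd3e, Cd3d, Cd8a, Nkg7) at 0. The part of changed cell makeup in the results for the 34 genes was not tested.

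**Figure D4:**
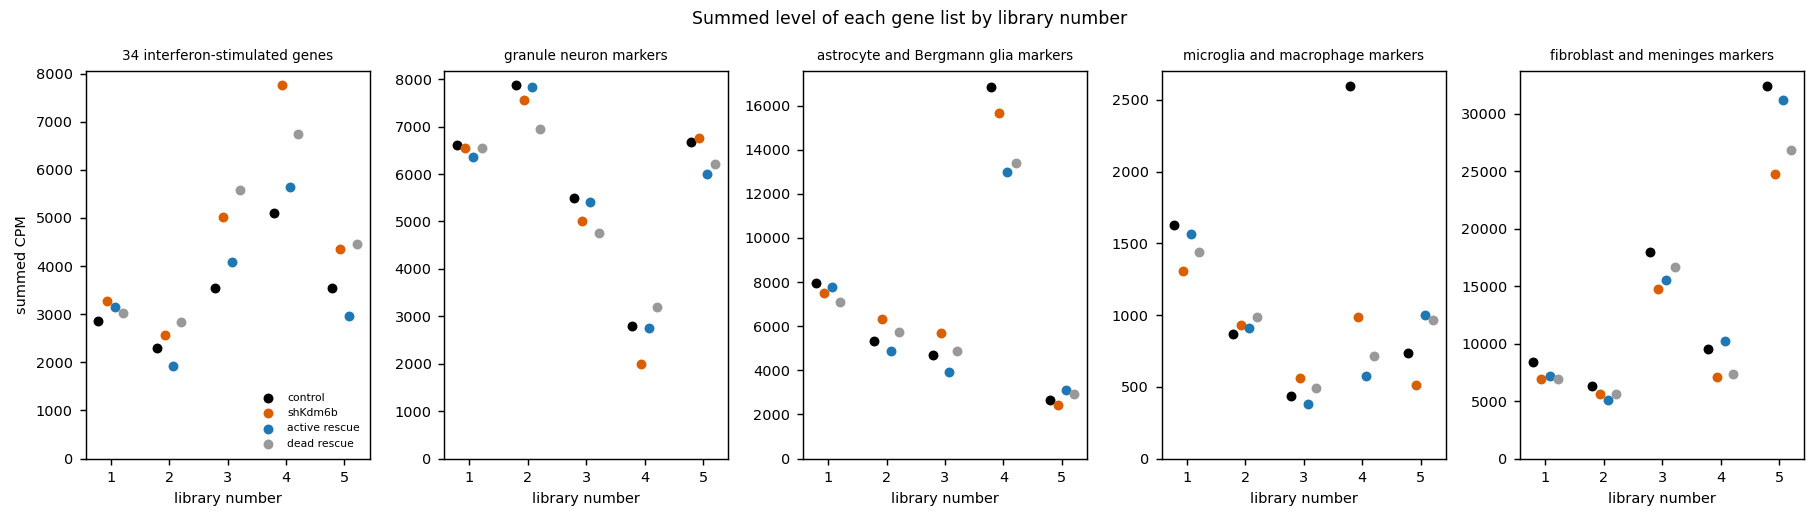
Summed CPM (y axes, linear, from 0) of the 34 genes and of 4 lists of cell type markers in the 20 libraries, by library number (x axis) and group (colour). For the 34 genes the libraries numbered 4 lie between 5110 and 7770 CPM, and in those the astrocyte markers are highest and the granule neuron markers lowest.

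The genes upstream of the response did not pass. Of 24 genes of interferon signalling (ligands, receptors, kinases, factors and inhibitors), 21 were tested and 0 passed in any of the 6 comparisons with the block; in shKdm6b 11 values were positive and 10 negative, with a median of 0.01. The receptor subunits Ifnar1 and Ifnar2 were at 112 and 64.9 CPM in control and at 113 and 63.5 CPM in shKdm6b (means, n = 5). The 3 interferon genes fell below the filter: Ifnb1 reached at most 6 counts and was above 0 in 7 of 20 libraries, Ifna4 reached 3 counts in 3 libraries, and Ifng 2 counts in 1 library.

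A further list of 67 interferon-stimulated genes had 62 genes tested. In shKdm6b 5 of 62 rose and 0 fell with the block, beside 1.72% and 2.41% of all genes: Ifi47, Gbp5, Oas1b, Parp11 and Daxx. Without the block 0 of 62 passed, and with the block but without the libraries numbered 4 there were 3 (Gbp5, Ifi47 and Znfx1). Ifi47, an interferon-induced GTPase, went from 35.2 to 49.6 CPM (0.47 ± 0.08, adjusted p = 0.00369). Parp11, a further ADP-ribosyltransferase, went from 39.2 to 49.7 CPM (0.32 ± 0.08, adjusted p = 0.0332). The list had 54 positive and 8 negative values with the block (median 0.27), beside 52.1% positive over all genes. Of the 62, 55 were negative between the active and the dead rescue (median -0.22) and 56 between the active rescue and shKdm6b (median -0.23), with 0 passing in either. Between the dead rescue and shKdm6b 30 were positive and 32 negative, and against control the dead rescue had 1 gene called higher, Ifi47.

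The genes lie on 12 chromosomes of GRCm38 (mm10) as GENCODE annotates it, and several are neighbours. The 4 Ifit genes lie together on chromosome 19 (Ifit3, chr19:34583531-34588731, plus strand; Ifit3b, chr19:34607970-34613401, plus strand; Ifit1, chr19:34640871-34650009, plus strand). Rsad2 (chr12:26442746-26456452, minus strand) is followed by Cmpk2, which runs the other way. Cxcl10 (chr5:92346638-92348889, minus strand) overlaps no other gene on its strand and Art3 on the other strand, with 4.47% of its 31-base words antisense to it. Usp18 (chr6:121245906-121270917, plus strand) overlaps Gm44148 on the other strand, with 3.48%. The coordinates are of whole genes, and the authors may have counted on another annotation. Over the 34 genes, 9 shared more than 10% of their 31-base words with another gene and 14 shared under 1%.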

How the data were processed

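RNA of 20 libraries was extracted with the RNAqueous Micro Kit, per the labels' protocols. The authors deposited 1 table of estimated counts by gene, unscaled, whose name gives salmon as the tool. The submitters' processing notes name the build mm10. Neither salmon's version nor the annotation is given in the sources used here. In a library 7.03 to 11.2% of the values were not whole. Counts were rounded, filtered with filterByExpr (9127 genes removed) and tested with edgeR 4.0.16 (R 4.3.3; TMM, quasi-likelihood, two-sided, Benjamini-Hochberg over all 15284 genes, threshold 0.05) as 6 contrasts of 1 fit of 20 libraries. Alternatives were DESeq2 1.42.0 and others given in the closing section.

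Within groups, the chi-square per degree of freedom between libraries, which is 1 for sampling noise alone, was 27.9 to 395, and every library was kept as its own sample. Replicate numbers 1 to 5 come from the labels, which do not say what they stand for. Deviations from the group means correlated in each of the 30 pairs of libraries with the same number (r across genes 0.361 to 0.881, median 0.608, all above the limit of 0.1), so the numbers pair the samples. The planned main fit had no block; the fit with the number as a block, set down beside it, is given wherever its calls differ. The biological coefficient of variation was 0.392 without and 0.179 with the block.

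The members and the gene lists were chosen with earlier results of these data known. Values in every library were to be given for up to 3 genes per role, those that passed first and then those of highest mean CPM, which gave 12 genes; Oas2, Irf9, Irf7 and Bst2 were added after their values were seen, as were Ifnar1, Ifnar2 and, among 5 called genes of another list, Gbp5. Of marker lists fixed for the cultures, endothelial markers summed to 59.5 to 187 CPM, oligodendrocyte lineage markers to 99.8 to 1014 CPM, and those of GABAergic interneurons and Purkinje cells to 113 to 378 CPM. Sequence words of 31 bases come from GENCODE transcripts and promoters from RefSeq (GRCm38.p6), searched with Python 3.11.15 and Biopython 1.88. Intervals were not computed, and 3 counts correspond to 0.138 to 0.199 CPM.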

Additional observations from a re-analysis of the deposited data

Results flagged for a closer look

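In 2 of 52 groups of 5 libraries tested, 1 library stood far from the other 4, by a gap that chance gives in about 1 of 20 groups. Usp18 in control library 4 was at 125 CPM, with the nearest library at 82.3 CPM, and the gap was 0.762 of the group's range. Mx2 in active rescue library 4 was at 54.8 CPM, with the nearest at 26.3 CPM, and the gap was 0.727 of the range. Both are libraries numbered 4, whose summed astrocyte markers were also the highest; the part of cell makeup in these values was not tested. Without the libraries numbered 4 the log2 fold change of Usp18 in shKdm6b was 0.49 ± 0.14 (edgeR with the block, adjusted p = 0.0548), against 0.59 with all libraries.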

How the results depend on the processing

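Without the block, the count of called genes among the 34 was 0 in all 6 comparisons under every setting run (RLE scaling, DESeq2, no filter on low counts, only the groups compared, and each library left out). The replicate block, which uses the pairing, gave 7 in shKdm6b, 1 in the active rescue and 2 in the dead rescue, each against control. With DESeq2 and the block these were 9, 2 and 7, with 1 between the 2 rescues. Without the libraries numbered 4 and with the block they were 5, 1 (Oas2, lower) and 2; without those numbered 5 the count in shKdm6b was 1, and with numbers 1 to 3 alone 2. Leaving out each library in turn gave 0 to 9 in shKdm6b, 0 to 1 in the active rescue and 0 to 4 in the dead rescue over both fits, and 0 in the other 3 comparisons. The cause of these differences was not tested. For DESeq2 and the fits on fewer libraries the share of all genes called is not given here, so their counts have no background.

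Some fold changes that passed in no fit changed sign. Between the active and the dead rescue, Cxcl10 was at 0.12 with the block and 0.12 in DESeq2 with the block, and at 0.16 without the libraries numbered 4. Rsad2 there was at -0.00892 in DESeq2 with the block, -0.21 without numbers 4, -0.14 without numbers 5 and -0.49 with numbers 1 to 3 alone. Ifitm3 between the active rescue and shKdm6b was at 0.017 with numbers 1 to 3 alone. With 1 library left out, values in the contrast of the rescues ran from -0.70 to 0.56 for Cxcl10, -0.38 to 0.24 for Rsad2, -0.97 to 0.060 for Ifit3b and -0.40 to 0.019 for Parp14. In the active rescue against shKdm6b they ran from -0.95 to 0.063 for Ifit3b, -0.60 to 0.089 for Ifitm3, -0.60 to 2.99e-05 for Rtp4 and -1.02 to 0.23 for Cxcl10. Ifitm3 ran from -0.24 to 0.50 in shKdm6b and from -0.050 to 0.42 in the dead rescue, each against control.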
